A study of Mus musculus with 11 samples.

Results

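The matrix metalloproteinases and their inhibitors were followed in BV2 cells as 9 genes chosen by symbol, the proteases Mmp8, Mmp9, Mmp12, Mmp13, Mmp14 and Mmp25 and the inhibitors Timp1, Timp2 and Timp3, out of 36529 genes listed in the count files. BV2 is an immortalized line of mouse microglia, labelled C57BL/6, so all 11 samples are of 1 line. In one experiment, 3 samples were treated for 5 h with 25 µg/mL of the amino-terminal fragment of ApoE4 (residues 1 to 151, called nApoE4) and 3 untreated samples, ControlA, served as controls. In the other, 2 samples received the same dose of the ApoE3 fragment (nApoE3) for the same time and 3 untreated samples, ControlB, served as controls. Both fragments carry a His tag for purification. The sample notes name a PBS vehicle and the methods name conditioned media for the untreated cells, and the sources used here do not settle what the untreated cells were given. Each fragment has its own experiment, so that a difference between the fragments and a difference between the experiments cannot be told apart. Nothing in the labels says that samples of a group came from separate cultures, and p-values therefore measure the spread between these samples, which may be technical.

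Matrix metalloproteinases (MMPs) are zinc-dependent endopeptidases that are made as inactive proforms and cut collagens, elastin, proteoglycans, cytokines and cell surface receptors. Collagenases such as MMP8 and MMP13 open the triple helix of fibrillar collagen, the gelatinase MMP9 cuts denatured and basement membrane collagen, MMP12 is the macrophage elastase, and MMP14 and MMP25 are held at the cell membrane. The tissue inhibitors of metalloproteinases (TIMPs) bind the active site and block it. In the brain, microglia are a source of both, and MMP9 is known for opening the blood-brain barrier.

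In these cells, Mmp13 rose most of the listed genes that held counts, by 38.5-fold with nApoE4 and 54.4-fold with nApoE3. Mmp12 rose by 4.91-fold and 11.1-fold, Mmp14 by 16.1-fold and 7.51-fold, and Mmp9 by 1.73-fold and 4.48-fold, in the same order. The 16.1-fold rise of Mmp14 starts from at most 6 counts in any ControlA sample. Timp2 moved the other way, to 0.581 of its untreated level with nApoE4 and to 0.527 with nApoE3. Mmp8, Timp1 and Timp3 were listed at 0 in all 11 samples and, as described next, could not be read as absent.

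The zeros of Mmp8, Timp1 and Timp3 went with their place in the genome. Timp1 (chromosome X, 20870166 to 20874737 of GRCm38.p6) lies whole within the span of Syn1, a neuronal synapsin gene, Timp3 (chromosome 10, 86300412 to 86349505) within that of Syn3, and Mmp8 (chromosome 9, 7558429 to 7568486) within that of the noncoding gene Gm31751. Of 820 protein-coding genes of the files whose span lies inside that of another gene, 757 (92.3%) were at 0 in every sample, against 2441 of 12194 (20.02%) genes that no other gene overlaps. The share was 93.7% of 335 genes whose host is on the opposite strand alone and 93.9% of 132 whose host is on the same strand alone. The host genes themselves held few counts, 25 to 55 for Syn1, 22 to 106 for Syn3 and 0 to 10 for Gm31751. Reads tallied as ambiguous, which the counting assigned to no gene, were 3.24 to 3.56% of all reads tallied. The feature type, strand setting and overlap mode of the counting are not given in the sources used here. A level of Timp1, Timp3 or Mmp8 can therefore not be stated, and no test was made on them. The other 6 genes were overlapped over little or none of their span, 18.7% for Timp2, 9.68% for Mmp25 and 0% for Mmp9, Mmp12, Mmp13 and Mmp14.

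**Figure D1:**
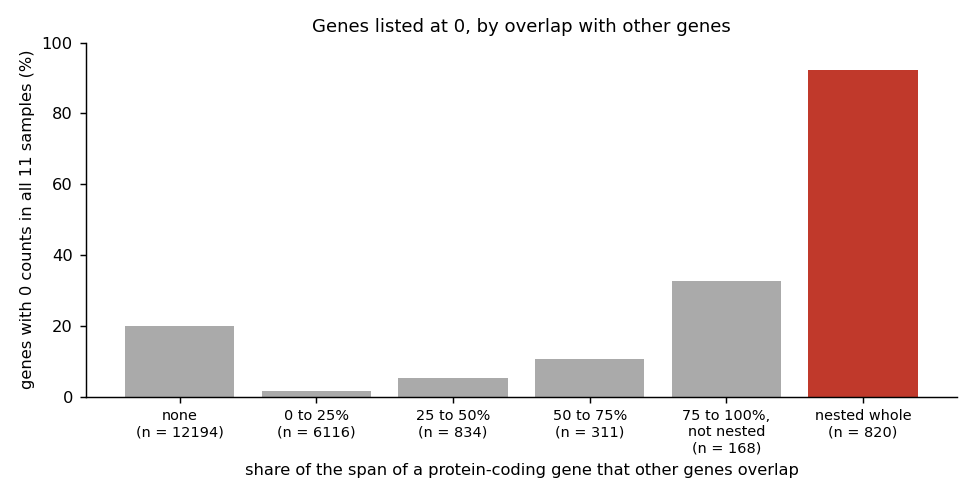
Share of protein-coding genes with 0 counts in all 11 samples (vertical axis, percent), by how much of the gene's span other genes overlap (horizontal axis, with the number of genes). The share is 20.02% without overlap and 92.3% for genes nested whole in another gene, the class that holds Mmp8, Timp1 and Timp3.

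Depth was 39732710 to 69768666 counts on genes per sample, at which 3 counts, taken as the floor, correspond to 0.0430 to 0.0755 CPM, the usual count scaled to the size of the library, a limit that covers counting error only. The listed microglia and macrophage markers summed to 2393 to 3654 CPM over the 11 samples, with P2ry12, which is nested in another gene, at 0 throughout. Aif1, which is not nested, held at most 10 counts in any sample, and Cx3cr1 spanned 0.0722 to 0.739 CPM. Trem2 spanned 1.33 to 60.5 CPM within ControlA. On the log2 scale, Spi1 (1.35 with nApoE4, 1.01 with nApoE3) and Ptprc (0.95, 0.87) rose, and Tmem119 (−0.98, −2.40) and Itgam (−0.37, −0.30) fell. The listed neutrophil markers, of interest because neutrophils are known to store MMP8, MMP9 and MMP25, summed to 1.10 to 2.52 CPM, and Ly6g was at 0 in all samples. Of these markers, Cxcr2 fell by 1.41 and 1.69 on the log2 scale, in the same order. Camp had log2 values of 2.24 and 2.97, from at most 6 counts in any ControlA sample and 7 in any ControlB sample. It passed the filter on low counts through the treated samples alone in both experiments, so that its call carries less. Fibroblast markers summed to 1.1997 to 1.49 CPM in ControlA, 3.17 to 4.28 with nApoE4, 0.887 to 1.08 in ControlB and 2.13 to 2.74 with nApoE3, with Col3a1 and Lum at 0 in ControlA and with both fragments. Pdgfrb held most of this sum and rose by 1.43 and 1.44 on the log2 scale, with nApoE4 and nApoE3. Astrocyte markers summed to 1.36 to 1.56, 6.88 to 7.89, 1.47 to 1.99 and 5.88 to 6.01 CPM in the same groups, with Gja1 at 0 in all but ControlB. Neuron markers summed to 3.30 to 4.37, 7.41 to 8.35, 3.19 to 3.31 and 3.52 to 3.82 CPM, and endothelial markers to 194 to 236, 101 to 111, 82.3 to 84.3 and 58.2 to 63.3 CPM, with Cldn5 at 0 throughout. Tubb3, a neuron marker, rose by 1.43 with nApoE4 and did not pass with nApoE3 (0.28). Slc1a2 and Slc1a3, astrocyte markers, rose by 2.69 and 2.09 on the log2 scale with nApoE4 and by 2.05 and 1.60 with nApoE3. Slc1a3 held at most 10 counts in any ControlA sample. It reached the cutoff of the filter, which asks for 3 samples, in 1 ControlA sample and in all nApoE4 samples, so that its call there carries less. Kdr and Vwf, at means of 166 and 50.7 CPM in ControlA, held most of the endothelial sum. Kdr fell by 1.33 and 0.55 and Vwf by 0.32 and 0.28 on the log2 scale. Pecam1 rose by 0.66 with nApoE3 and did not pass with nApoE4 (−0.19). The part of these lists in the results below was not tested. All samples are labelled as 1 line, and these sums give no share of cell types. A change in the number of cells that express a gene and a change in RNA per cell cannot be told apart in such samples.

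Within ControlA, replicate 2 stood apart, with a chi-square per degree of freedom over genes of 25.8 and 47.9 against the other replicates, which differed from each other by 7.85. Without it, the log2 fold change with nApoE4 was 0.99 for Mmp9, 2.34 for Mmp12 and 5.25 for Mmp13. It was 3.997 for Mmp14, 3.44 for Mmp25 and −0.74 for Timp2, and all 6 genes passed the test. So did 8827 of all 14561 genes tested in this run, beside 8145 of 14240 with all samples. For the difference between the fragments, described further on, Mmp9 (−1.18) and Mmp12 (−1.14) then still passed. Mmp25 and Timp2 passed as well, and Mmp14 did not (1.09, edgeR adjusted p = 0.0674). Of all genes, 5250 passed for the difference in this run, beside 4331 of 15287 with all samples. Between the untreated groups, the 5 genes tested with all samples passed again and kept their direction, and Mmp25 passed too. Mmp25 was not tested there with all samples. It then held 2 and 1 counts in ControlA and 13, 4 and 15 in ControlB. It passed the filter on low counts through ControlB alone, so that this call carries less. Of all genes, 10988 passed between the untreated groups in this run, beside 9879 of 14249 with all samples.

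Mmp13, on chromosome 9 from 7272514 to 7283333, is a collagenase and the gene of the group with the largest response. It held 69, 74 and 81 counts in the ControlA samples and 2960, 2418 and 2590 with nApoE4. In the second experiment it held 20, 10 and 11 counts in ControlB and 655 and 713 with nApoE3. Every treated sample lay far above its own controls in both experiments. On the scale of CPM, the level rose from 1.67 ± 0.0598 to 64.1 ± 5.50 (SD, n = 3 each) with nApoE4. On the log2 scale this rise was 5.27 (standard error 0.097), with an adjusted p = 4.08e-10 in edgeR's quasi-likelihood test. With nApoE3 it rose from 0.213 ± 0.0629 (SD, n = 3) to 11.9 ± 0.969 (SD, n = 2), or by 5.76 on the log2 scale (standard error 0.16, edgeR adjusted p = 8.38e-12).

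Mmp12, on the same chromosome from 7344397 to 7360461, codes for the macrophage elastase. Its counts were 362, 411 and 379 in ControlA and 2116, 1552 and 1564 with nApoE4. They were 23, 20 and 25 in ControlB and 223 and 240 with nApoE3. The groups of neither experiment overlapped, but the untreated levels were far apart, at 8.59 ± 0.529 CPM in ControlA and 0.364 ± 0.0688 CPM in ControlB (SD, n = 3 each). The level with nApoE3, 4.04 ± 0.296 CPM (SD, n = 2), was thus below that of the untreated ControlA cells, and the level with nApoE4 was 42.0 ± 6.41 CPM (SD, n = 3). The log2 fold change was 2.30 with nApoE4 (standard error 0.11, adjusted p = 1.21e-07) and 3.47 with nApoE3 (standard error 0.18, adjusted p = 4.29e-09).

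The 250 bases before the annotated start are shown for Mmp13 and Mmp12, the MMP genes with the highest counts after treatment, and for Timp2, which fell. They were taken from RefSeq (GRCm38.p6), which held 8 of the 9 genes, with 2 starts for Mmp12, and Mmp9 was missing. They are written 5′ to 3′ on the strand of the gene, and capitals mark letters that match an AP-1 motif (TGANTCA) or a PEA3/Ets motif (AGGAAG), on either strand. AP-1 joins Fos and Jun proteins, and both motifs have been described in MMP promoters in general.
Mmp13, chr9:7272264-7272513, plus strand: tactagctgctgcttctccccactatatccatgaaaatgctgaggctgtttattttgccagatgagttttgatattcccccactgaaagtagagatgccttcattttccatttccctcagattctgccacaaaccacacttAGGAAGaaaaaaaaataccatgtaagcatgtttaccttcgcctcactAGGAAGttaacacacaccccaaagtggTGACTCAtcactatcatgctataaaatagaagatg
Mmp12, upstream start, chr9:7344147-7344396, plus strand: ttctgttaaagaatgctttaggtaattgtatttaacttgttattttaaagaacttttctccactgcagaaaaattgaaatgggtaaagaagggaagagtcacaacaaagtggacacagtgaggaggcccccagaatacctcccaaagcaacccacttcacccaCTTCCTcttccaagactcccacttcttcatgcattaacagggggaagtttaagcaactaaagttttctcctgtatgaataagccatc
Mmp12, downstream start, chr9:7347124-7347373, plus strand: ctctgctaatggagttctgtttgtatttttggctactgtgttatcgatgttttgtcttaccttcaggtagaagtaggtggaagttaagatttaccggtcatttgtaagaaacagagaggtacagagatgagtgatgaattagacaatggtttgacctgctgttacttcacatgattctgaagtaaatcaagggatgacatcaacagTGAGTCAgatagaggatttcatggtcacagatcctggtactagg
Timp2, chr11:118355412-118355661, minus strand: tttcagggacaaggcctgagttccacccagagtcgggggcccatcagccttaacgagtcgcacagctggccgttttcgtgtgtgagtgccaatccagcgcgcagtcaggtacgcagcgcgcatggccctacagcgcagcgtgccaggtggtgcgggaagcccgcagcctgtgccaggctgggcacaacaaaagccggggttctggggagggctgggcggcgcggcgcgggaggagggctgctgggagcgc
The AP-1 letters began 35 bases before the start of Mmp13 and 44 bases before the downstream start of Mmp12. Such letters were found before 2217 of 32851 starts (6.75%) in the whole table, and before none of the other starts of the listed genes. The PEA3/Ets letters were found 109 and 62 bases before the start of Mmp13 and 87 bases before the upstream start of Mmp12, on the opposite strand, and before 29.5% of all starts. They were also found before Mmp8, Mmp14, Mmp25, Timp1 and Timp3, so that they do not set the risen genes or the MMP genes apart. Neither motif was found in the window of Timp2. A looser NF-kB motif (GGG and CC with any 5 bases between them, on either strand), present before 45.8% of all starts, was found before the upstream start of Mmp12 and not in the windows of Mmp13 or Timp2. Of the other listed genes, Mmp25, Timp1 and Timp3 held it, and Mmp8 and Mmp14 did not. These matches describe letters and were not tested for binding.

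Mmp9 (chromosome 2, 164940326 to 164955850), the gelatinase, had the smallest response of the MMP genes to nApoE4. It held 86, 137 and 101 counts in ControlA and 179, 156 and 180 with nApoE4. In the other experiment it held 36, 21 and 19 counts in ControlB and 106 and 101 with nApoE3. The highest untreated sample of ControlA stood close to the lowest nApoE4 sample, at 3.05 against 3.75 CPM, whereas ControlB and nApoE3 were wide apart. The log2 fold change was 0.79 with nApoE4 (standard error 0.17, adjusted p = 0.00322) and 2.16 with nApoE3 (standard error 0.22, adjusted p = 2.09e-06).

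The membrane-bound members held few counts. Mmp14 (chromosome 14, 54431598 to 54442456), known as an activator of pro-MMP2, held 6, 5 and 4 counts in ControlA and 86, 64 and 78 with nApoE4. It held 16, 22 and 18 counts in ControlB and 127 and 132 with nApoE3. The treated samples reached 1.84 ± 0.258 (SD, n = 3) CPM with nApoE4 and 2.26 ± 0.1098 (SD, n = 2) CPM with nApoE3, from untreated levels of 0.113 ± 0.0276 and 0.300 ± 0.0664 CPM (SD, n = 3 each), and treated and untreated samples were well apart in both experiments. The log2 fold change was 4.01 with nApoE4 (standard error 0.27, adjusted p = 1.26e-06) and 2.91 with nApoE3 (standard error 0.21, adjusted p = 1.04e-07). With nApoE4, Mmp14 passed the filter on low counts through the treated samples alone, so that this call carries less and its fold is poorly bounded.

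Mmp25 (chromosome 17, 23628315 to 23645269) held 2, 10 and 1 counts in ControlA and 20, 14 and 15 with nApoE4. It held 13, 4 and 15 counts in ControlB and 17 and 22 with nApoE3. The second pair of groups lay close together, with the highest untreated sample at 0.266 and the lowest treated sample at 0.292 CPM. The log2 fold change was 2.00 with nApoE4 (standard error 0.57, adjusted p = 0.0136), where Mmp25 passed the filter on low counts through the treated samples alone. With nApoE3 it was 0.99, with a 95% interval from −0.025 to 2.00 (adjusted p = 0.0776), and did not pass the threshold. The nApoE4 value rests on the untreated samples, since it was 3.44 without ControlA replicate 2, which holds 10 of the 13 counts of its group, and lost the threshold at 1.69 (adjusted p = 0.0538) without ControlA replicate 1.

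Timp2 (chromosome 11, 118301061 to 118355411), an inhibitor of MMPs that also takes part in the activation of pro-MMP2 by MMP14, was the inhibitor with counts. It held 3841, 4647 and 4454 counts in ControlA and 2302, 2383 and 2235 with nApoE4. It held 12005, 10241 and 9512 counts in ControlB and 5176 and 5035 with nApoE3. All treated samples were below all of their controls. The level fell from 96.4 ± 6.78 to 55.8 ± 1.89 CPM (SD, n = 3 each) with nApoE4, or −0.78 on the log2 scale (standard error 0.066, edgeR adjusted p = 5.70e-06). In the nApoE3 experiment its level in CPM went from 168 ± 2.39 (SD, n = 3) down to 89.0 ± 0.156 (SD, n = 2), or −0.92 on the log2 scale (standard error 0.026, edgeR adjusted p = 1.13e-11).

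**Figure D2:**
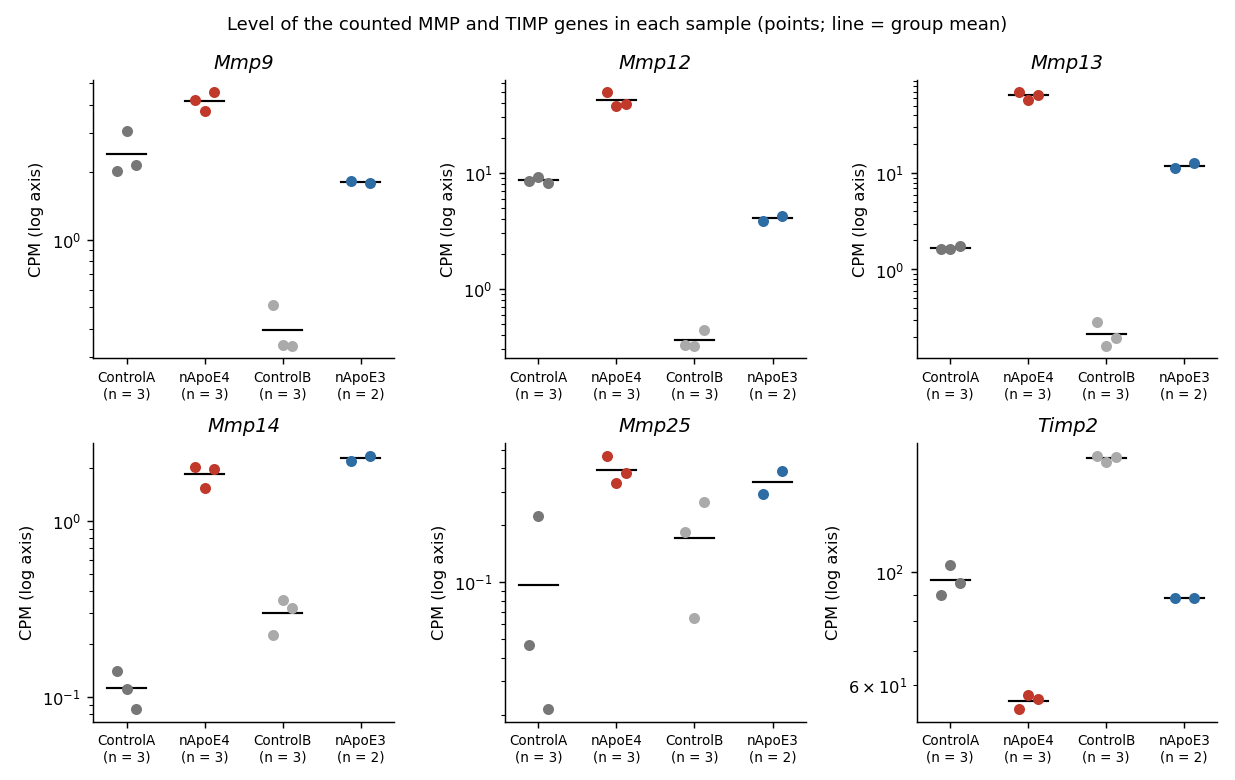
Level of the 6 genes with counts in each sample, in CPM on log axes (points), by group, with the group mean as a line. Mmp12, Mmp13, Mmp14 and Mmp9 lie above their own controls and Timp2 below them in both experiments, and ControlA and ControlB differ in level for 5 of the 6 genes.

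In all, 6 of the 9 genes passed the filter on low counts in each experiment. Of these, 5 rose and 1 fell with nApoE4, against 57.2% of all 14240 genes tested, with 28.6% higher and 28.6% lower. With nApoE3, 4 rose, 1 fell and Mmp25 did not pass, against 67.7% of 14817 genes, with 33.1% higher and 34.6% lower. Mmp14 and Mmp25 passed the filter in the nApoE4 experiment through the treated samples alone, so that their call there carries less than the others. Treated and untreated samples did not overlap for any of the 6 genes in either experiment, which held for 63.6% of all genes tested with nApoE4 (31.5% higher, 32.1% lower) and 77.6% with nApoE3 (38.6% higher, 39.0% lower). The median log2 fold change of the 6 genes was 2.15 with nApoE4 and 2.54 with nApoE3, beside 0.0013 and −0.0026 over all genes tested. The genes were chosen with earlier results of these data known, so that these medians describe the chosen genes only.

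**Figure D3:**
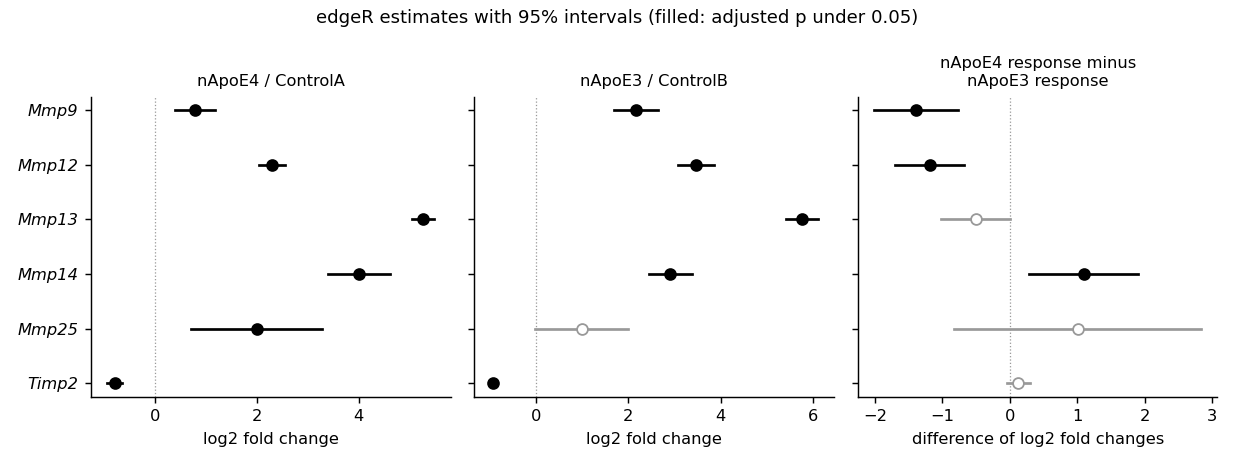
Log2 fold change of each fragment against its own controls, and the difference between both responses, with 95% intervals from edgeR (filled points: adjusted p under 0.05). Mmp13 has the highest fold change with both fragments, at 5.27 and 5.76, and Timp2 is the gene below 0 in both.

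The make-up of the MMP counts changed along with their sum. Mmp12 took 66.8 ± 2.22% of the counts on the 6 MMP genes in ControlA and 37.2 ± 2.09% with nApoE4 (SD, n = 3 each), while Mmp13 took 13.0 ± 1.35% and 57.1 ± 1.69%. In ControlB the counts were spread over Mmp9 (27.4 ± 5.87%), Mmp12 (25.2 ± 3.61%), Mmp14 (21.3 ± 6.92%), Mmp13 (14.7 ± 3.34%) and Mmp25 (11.4 ± 5.95%). With nApoE3, Mmp13 took 58.5 ± 0.676% (SD, n = 2), a share like that with nApoE4, from which it differed by less than the spread between the nApoE4 samples. The summed level of the MMP genes was 12.9 ± 1.15 CPM in ControlA, 113 ± 11.96 with nApoE4, 1.44 ± 0.175 in ControlB and 20.4 ± 1.42 with nApoE3.

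**Figure D4:**
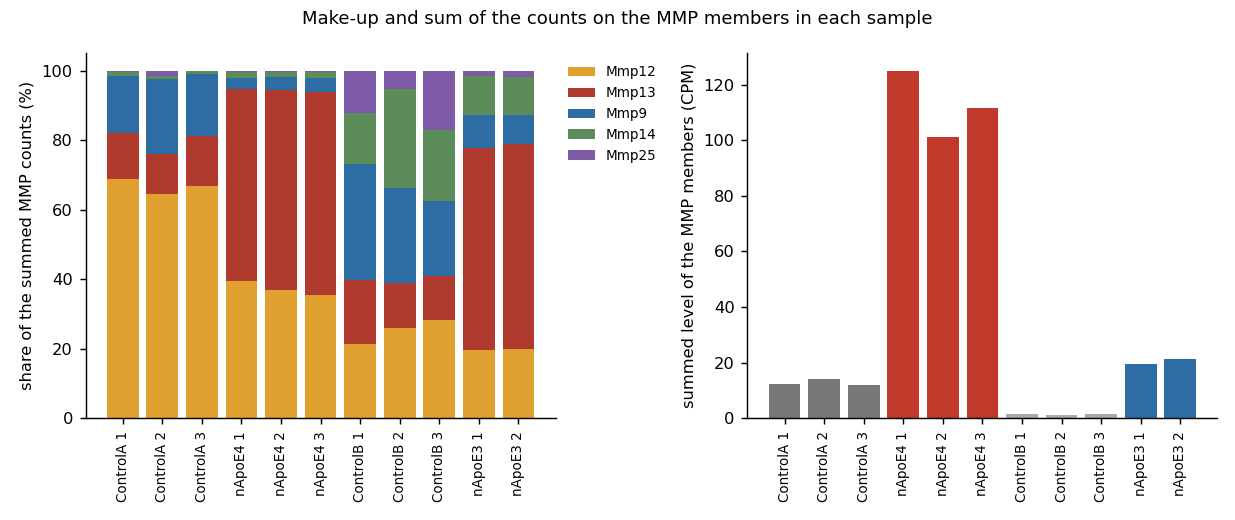
Left, share of the counts on the MMP members taken by each gene (percent, stacked); right, their summed level in CPM; 1 bar per sample. Mmp13 takes 55.2 to 59.0% in the 5 treated samples and 11.6 to 18.5% in the 6 untreated ones.

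Between genes, levels were compared per kilobase of annotated exon. This length joins the exons of all annotated transcripts of a gene. It was 7.237 kb for Mmp12, 2.673 for Mmp13, 3.539 for Mmp9, 5.96 for Mmp14, 5.303 for Mmp25 and 3.896 for Timp2. Where cells use a shorter transcript, the value of the gene is too low, so that the order depends on these lengths. Timp2 was highest in ControlA, at 24.7 ± 1.74 CPM per kilobase, followed by Mmp12 at 1.19 ± 0.0731, Mmp9 at 0.682 ± 0.159 and Mmp13 at 0.624 ± 0.0224 (SD, n = 3 each), of which the last pair did not differ beyond its spread. Mmp14 and Mmp25, at 0.0189 ± 0.00463 and 0.0183 ± 0.0207, did not differ either. With nApoE4, the order changed to Mmp13 at 24.0 ± 2.06, Timp2 at 14.3 ± 0.484, Mmp12 at 5.81 ± 0.886, Mmp9 at 1.17 ± 0.1105, Mmp14 at 0.308 ± 0.0433 and Mmp25 at 0.0742 ± 0.0125 (SD, n = 3 each). In ControlB, Timp2 stood at 43.1 ± 0.613 and all MMP genes at 0.112 or less, and Mmp14 and Mmp12 were level at 0.0504 ± 0.0111 and 0.0503 ± 0.00950. With nApoE3, Timp2 was highest at 22.9 ± 0.0401 and Mmp13 followed at 4.47 ± 0.363, before Mmp12 at 0.558 ± 0.0409, Mmp9 at 0.510 ± 0.00657, Mmp14 at 0.379 ± 0.0184 and Mmp25 at 0.0643 ± 0.0130 (SD, n = 2 each). The ratio of the summed counts of the MMP genes to those of the TIMP genes, which here is a ratio to Timp2 alone, was 0.134 ± 0.00566 in ControlA and 2.02 ± 0.285 with nApoE4 (SD, n = 3 each). It was 0.00859 ± 0.000935 in ControlB (SD, n = 3) and 0.229 ± 0.0156 with nApoE3 (SD, n = 2). Since Timp1 and Timp3 could not be counted, this ratio does not describe the balance of proteases and inhibitors.

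The responses to both fragments, each against its own controls, were compared by an interaction term fitted to all 11 samples. The rise of Mmp9 was smaller with nApoE4 than with nApoE3 by a log2 value of 1.39 (standard error 0.29, adjusted p = 0.00298), and that of Mmp12 by 1.19 (standard error 0.24, adjusted p = 0.00215). The rise of Mmp14 was larger with nApoE4 by 1.09 (standard error 0.37, adjusted p = 0.0436), a call that was lost under 13 of 17 alternatives. For Mmp13 the difference was −0.51 (95% interval −1.02 to 0.0060, adjusted p = 0.134), for Mmp25 1.01 (−0.83 to 2.84, adjusted p = 0.421) and for Timp2 0.13 (−0.041 to 0.29, adjusted p = 0.257). Thus 3 of the 6 genes passed, 1 upward and 2 downward, against 28.3% of the 15287 genes tested (14.4% upward and 13.9% downward).

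These differences stand beside untreated levels that differed between the experiments. ControlB against ControlA gave a log2 value of −4.58 for Mmp12, 23.9-fold lower (standard error 0.14, adjusted p = 2.46e-07), −2.95 for Mmp13 (standard error 0.22, adjusted p = 9.62e-06) and −2.60 for Mmp9 (standard error 0.24, adjusted p = 3.17e-05). It was higher by 1.38 for Mmp14 (standard error 0.35, adjusted p = 0.00745) and by 0.79 for Timp2 (standard error 0.055, adjusted p = 6.87e-06). Mmp14, with at most 6 counts in any ControlA sample, passed the filter on low counts here through the ControlB samples alone. Its call between the untreated groups therefore carries less than the others, and its fold is poorly bounded. All 5 listed genes that could be tested between the untreated groups differed, 2 higher and 3 lower in ControlB, as did 69.3% of 14249 genes (34.4% higher and 34.9% lower). The samples of both untreated groups did not overlap for these 5 genes, which held for 38.2% of all genes on the higher side and 36.0% on the lower side (74.1% in all). The part of the untreated level in the size of each response was not tested.

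Genes whose pattern over the 11 samples was nearest were sought among those that reached a mean of 10 CPM in some group, by the root mean square difference of log2 CPM after subtracting the mean of the own controls. For Mmp12 these were Hcar2, a receptor for nicotinic acid, and Trim34a, at differences of 0.131 and 0.148. For Mmp13 they were Oasl2 and Oasl1, both known as interferon-induced genes, at 0.340 and 0.349, a looser likeness. For Mmp14 they were Icam1, an adhesion molecule, and Rassf4, at 0.195 and 0.196, for Mmp9 Adora2b, an adenosine receptor, and Trim14, at 0.196 and 0.222, and for Timp2 Rell1 and Lrrc20, at 0.0377 and 0.0516.

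Most other genes of the family held too few counts to be tested. Of 18 other MMP and TIMP genes, 7 could be tested with nApoE4, of which 5 rose and 2 fell, and 5 with nApoE3, of which 2 rose, 2 fell and 1 did not pass, beside 57.2% and 67.7% of all genes called. Mmp27 and Timp4 are nested in other genes and were at 0 throughout. Mmp10, a stromelysin, rose from 0.141 ± 0.0545 to 3.59 ± 0.845 CPM (SD, n = 3 each) with nApoE4, a log2 fold change of 4.64, and by 4.17 with nApoE3, from 0.0172 ± 0.0178 (SD, n = 3) to 0.323 ± 0.00547 CPM (SD, n = 2). It held at most 9 counts in any ControlA sample and 2 in any ControlB sample. As it passed the count filter through the treated samples alone in both experiments, its call carries less than most others and its fold is poorly bounded. With nApoE4 the same holds for Mmp24, 1 of the 5 genes that rose, with at most 6 counts in any ControlA sample. Mmp2, the gelatinase that MMP14 activates, rose by a log2 value of 2.38 and 1.57. Mmp15, a membrane-type MMP, fell by 1.17 and 1.204 on the log2 scale, and Mmp19 fell by 1.32 and 0.93, in the same order. Mmp23, named after its values were seen, rose by 1.49 with nApoE4 and did not pass with nApoE3 (−0.21). Mmp1a, Mmp3, Mmp7 and Mmp20 held no more than 4 counts in any sample.

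Genes that activate, bind or clear MMPs were taken from a list of 20, of which 12 could be tested in each experiment. With nApoE4, 5 rose, 3 fell and 4 did not pass, beside 57.2% of all genes called, and with nApoE3, 7 rose, 3 fell and 2 did not pass, beside 67.7%. Lcn2, whose protein forms a complex with MMP9, rose by a log2 value of 6.62 (adjusted p = 2.95e-09) with nApoE4 and 6.52 (adjusted p = 3.95e-13) with nApoE3. Plat, the tissue plasminogen activator, had log2 values of 4.17 and 4.01 from at most 3 counts in any untreated sample. It too passed the filter through the treated samples alone in both experiments. Lcn2 reached the cutoff of the filter, which asks for 3 samples, in 2 ControlA samples and in all nApoE4 samples. Plaur, the urokinase receptor, rose by 1.23 and 2.78, and Cd44, a hyaluronan receptor that can hold MMP9 at the cell surface, by 2.28 and 1.72. Plau, urokinase itself, was chosen after its values were seen, as it fell by 1.38 on the log2 scale with nApoE4 and rose by 0.61 with nApoE3.

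Of 28 ADAM and ADAMTS genes, which code for related metalloproteinases, 6 rose and 5 fell of 14 tested with nApoE4, and 9 rose and 4 fell of 16 tested with nApoE3, beside 57.2% and 67.7% of all genes called. Adam17, the sheddase of TNF, rose from 185 to 459 CPM with nApoE4 and from 234 to 548 CPM with nApoE3 (group means), log2 fold changes of 1.32 and 1.22. Adam22 rose by 2.19 and 2.08 and Adamts4, an aggrecanase, by 1.41 and 3.70, while Adam19 fell by 2.74 and 0.98 on the log2 scale. Adamts1, also named after its values were seen, fell by 0.91 on the log2 scale with nApoE4 and rose by 1.65 with nApoE3.

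Among 29 genes for matrix substrates of MMPs, 6 rose, 2 fell and 5 did not pass with nApoE4, and 8 rose, 3 fell and 3 did not pass with nApoE3, beside 57.2% and 67.7% of all genes called. Spp1, which codes for osteopontin, was the most abundant of those named, at 2491 CPM in ControlA and 5082 with nApoE4, and at 1881 in ControlB and 3061 with nApoE3 (group means), log2 fold changes of 1.03 and 0.70. Agrn, the proteoglycan agrin, rose by 2.74 and 2.16, and Col4a2, a chain of basement membrane collagen, by 2.56 and 4.68. Fbn1, fibrillin, passed the filter with nApoE3 alone, through its treated samples, and had a log2 value of 3.05 there. The list medians were 0.68 and 0.66 for substrates, 0.14 and 0.50 for activators and partners, and −0.087 and 0.85 for ADAM and ADAMTS genes, with nApoE4 and nApoE3.

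**Figure D5:**
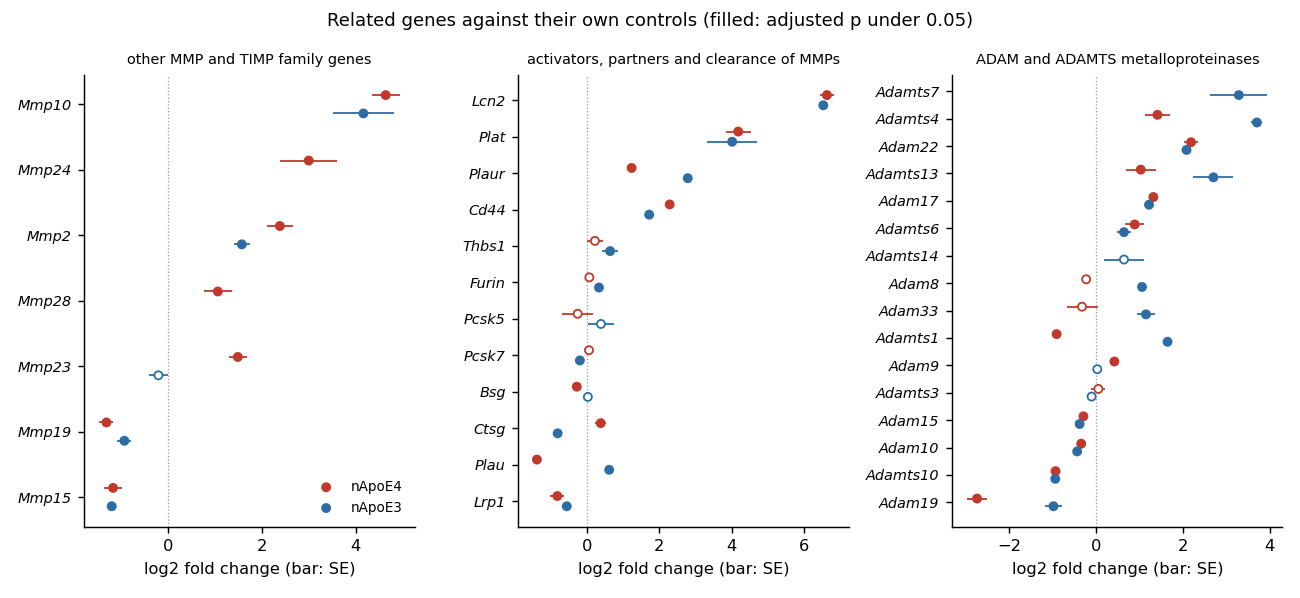
Log2 fold change with its standard error for the tested genes of the family, of MMP partners and of ADAM and ADAMTS genes, with nApoE4 (red) and nApoE3 (blue) against their own controls; filled points have an adjusted p under 0.05. Lcn2 stands highest, at 6.62 and 6.52.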

How the data were processed

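RNA from 11 samples of BV2 cells in 4 groups was sequenced as total RNA. The authors trimmed single-end reads with Trim Galore 0.5.0, assessed them with FastQC 0.11.8, mapped them to GRCm38.p6 with HISAT2 2.1.0 and deposited raw counts per gene from HTSeq 0.11.0, without normalization. Rows that tally reads on no gene were left out of library sizes. No samples agreed within sampling noise, as a chi-square per degree of freedom over genes was at least 3.15 for every pair of replicates.

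Groups, controls and replicate numbers were taken from the labels. The deposited counts entered edgeR 4.0.16 under R 4.3.3 (filterByExpr, TMM, quasi-likelihood F test, Benjamini-Hochberg adjustment over all genes tested), each fragment against its own controls. The interaction was fitted over all 11 samples, and the untreated groups were compared in the same way. Genes with an adjusted p under 0.05 are described as changed. Standard errors were derived from the log2 fold change and its F value. CPM used TMM factors of all samples, and exon lengths came from GENCODE M21. The procedure was tested on simulated counts.

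All 9 genes were described. From each other list, up to 4 genes were taken among those past the threshold with 1 CPM in some group. They were those with the largest mean log2 fold change, regardless of its sign. The genes, lists and motifs were chosen with earlier results of these data known. Of the list of activators and partners, 1 gene is not reported here and was left out of its counts. Alternatives were DESeq2 1.42.0, its size factors, other count filters, 1 fit of all samples, a replicate block, thinning, a test against a fold of 2 and leaving out each sample.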

Additional observations from a re-analysis of the deposited data

Results flagged for a closer look

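Responses to the fragments were compared by the interaction test of edgeR over 11 samples, and the genes given here passed an adjusted p of 0.05. As nApoE4 minus nApoE3 on the log2 scale, the difference was −1.39 for Mmp9 (adjusted p = 0.00298), −1.19 for Mmp12 (adjusted p = 0.00215) and 1.09 for Mmp14 (adjusted p = 0.0436). Among related genes that changed in opposite directions, it was −2.003 for Plau (adjusted p = 3.23e-07), 1.18 for Ctsg, cathepsin G (adjusted p = 7.13e-04), and −2.56 for Adamts1 (adjusted p = 2.60e-09). Ctsg had a log2 fold change of 0.38 with nApoE4 (standard error 0.15, edgeR adjusted p = 0.0487), just within the threshold. It fell by 0.81 with nApoE3 (standard error 0.13, edgeR adjusted p = 1.25e-04). Among the other related genes named above, the difference was 1.68 for Mmp23, −1.56 for Plaur, 0.55 for Cd44 and −2.30 for Adamts4. It was −1.77 for Adam19, −2.12 for Col4a2 and 0.57 for Agrn. Each value sets a fragment and its experiment together against the other, and these cannot be told apart. Groups of 2 or 3 samples were too small for a test of single samples, and ControlA replicate 2, which stood apart, is described above.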

How the results depend on the processing

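No listed gene changed direction under any alternative run. With a test against a fold change of 2, 3 of the listed genes passed with nApoE4 (Mmp12, Mmp13 and Mmp14), 4 with nApoE3 (these and Mmp9), 0 for the difference between the fragments and 3 between the untreated groups, and of all genes 1575 passed with nApoE4, 1495 with nApoE3, 191 for the difference and 1354 between the untreated groups. This test asks for more than a fold of 2, so that fewer genes pass. With a replicate block, 2307 genes passed for the difference between the fragments. The labels share replicate numbers, but same-numbered samples did not deviate together, with correlations of −0.172 to −0.0386 over 3 pairs and −0.0126 to −0.0079 over 2 pairs, so the block was not used as pairing. With it, Mmp25 passed with nApoE3 (adjusted p = 0.0329), as it did after thinning to the smallest library (adjusted p = 0.0260), and Mmp14 no longer did for the difference (adjusted p = 0.142). Per kilobase of exon, the ratio of MMP to TIMP counts moved to 0.102 in ControlA, 0.00752 in ControlB and 0.262 with nApoE3.

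Leaving out each sample in turn, 5 to 6 listed genes passed with each fragment, 2 to 4 for the difference and 5 to 6 between the untreated groups. For all genes the counts were 7142 to 8827 with nApoE4, 9121 to 9837 with nApoE3, 3040 to 5250 for the difference and 8949 to 10988 between the untreated groups, with 8827, 5250 and 10988 of these without ControlA replicate 2. Without 1 of the nApoE3 samples, the lone sample was assumed to vary like the others. The ratio of MMP to TIMP counts stayed at 0.132 to 0.137 in ControlA, 1.87 to 2.15 with nApoE4, 0.00826 to 0.00912 in ControlB and 0.218 to 0.240 with nApoE3. Without ControlB replicate 3, Mmp25 passed with nApoE3 (1.40, adjusted p = 0.0245). Without ControlA replicate 2, the difference between the fragments passed for Timp2 (0.18, adjusted p = 0.0246) and Mmp25 (2.47, adjusted p = 0.0398). For Mmp14 the difference ranged from 0.93 to 1.28 and its adjusted p from 0.0253 to 1 over 17 alternatives. It was lost without ControlA replicate 2 or 3, ApoE4 replicate 1 or 3, ControlB replicate 2 or 3 and either ApoE3 replicate, with DESeq2, with a looser filter, with the block, with thinning and with the test against a fold of 2, and the cause of the lost calls was not tested. Few counts limit Mmp14 and Mmp25.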
